A study of Homo sapiens with 4 samples.

Results

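The zinc finger genes of chromosome 19 were examined in parental SUM159 cells and in NOS2KO SUM159 clones, as the protein-coding genes with a numbered ZNF symbol in GENCODE release 29, ordered by their start. There were 246 such genes among the 57500 genes of the deposited counts. SUM159 is a triple-negative, metaplastic breast cancer cell line. One library, hereafter parental, came from cells for which the labels name no treatment. The NOS2KO clones, numbered 1, 5 and 6, came from SUM159 cells that received a double nickase plasmid against NOS2, the gene of inducible nitric oxide synthase (iNOS), and were kept after puromycin selection, iNOS immunoblotting and an assay of nitrite and nitrate. Each group or clone has 1 library, so transfection, selection, outgrowth of a clone and loss of NOS2 cannot be told apart, and a clone's value has no replicate check. A set of 1217 other protein-coding genes of chromosome 19 and 262 genes with the same kind of symbol on other chromosomes were used for comparison.

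Most proteins of this family pair a Krüppel-associated box (KRAB) with a tandem array of C2H2 zinc fingers. The fingers bind DNA, often within retrotransposons, and the KRAB domain binds TRIM28, which brings in the histone methyltransferase SETDB1, HP1 proteins and the NuRD complex and leads to repressive H3K9 methylation and DNA methylation. On chromosome 19 these genes arose by repeated local duplication and lie in clusters. Several clusters themselves carry H3K9 methylation over the 3′ exons, laid down in part through the family member ZNF274.

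The parental, clone 1, labelled clone 5 and clone 6 libraries held 90467395, 122171287, 101337366 and 97362293 counts on genes, and values are given below in this order. NOS2 had 2, 3, 18 and 1 counts, too few to check the labels, and the wording "labelled" is kept for clone 5, where NOS2 was above the parental count. Of the line's markers, VIM was between 1655 and 3855 CPM (counts scaled to library size, with TMM factors) and CD44 between 454 and 827, FN1, KRT8 and KRT18 were at or above 254 CPM, while ESR1 and CDH1 stayed under 1 CPM and PGR at or under 3 counts. ERBB2, listed as low, was between 48.3 and 106 CPM. Of the 2 markers of other cells, PTPRC (leukocytes) was 4.45 CPM in the parental library and between 41.7 and 105 CPM in the clones, and PECAM1 (endothelium) was 16.1 CPM in the parental library and between 7.06 and 13.9 CPM in the clones. Neither was at 0, and their part in the results below was not tested.

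Most members were expressed at low levels. Their median was 5.00 CPM for parental, 3.56 for clone 1, 5.91 for labelled clone 5 and 5.90 for clone 6. At least 1 CPM was found for 205, 170, 215 and 213 members in the same order, and at least 10 CPM for 66, 50, 59 and 76. Together the members took 0.224%, 0.166%, 0.202% and 0.224% of all counts. A floor of 3 counts, equal to 0.0262 to 0.0332 CPM, was not exceeded by 34 members in clone 1, against 6 for parental, 7 for labelled clone 5 and 10 for clone 6. The highest levels per kilobase of exon in the parental library were those of ZNF146 (a protein made up almost only of zinc fingers), ZNF358, ZNF428, ZNF787 and ZNF580, at 37.5, 25.8, 25.3, 24.6 and 17.9 CPM per kilobase, and none of these 5 genes encodes a KRAB A box. The first member, ZNF554, had 513, 405, 496 and 391 counts in parental, clone 1, labelled clone 5 and clone 6, and the last, ZNF446, had 756, 1215, 978 and 1018. Clone 1 had the lowest median and the most members with almost no counts. Over all genes of the deposited counts, 29059 had a count in parental, 29865 in clone 1, 31030 in labelled clone 5 and 29666 in clone 6. The share of all genes at or under 3 counts was not determined.

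To ask which members differed in NOS2KO cells as a group, edgeR's quasi-likelihood test compared the 3 clones with parental. Counts were high enough for 237 of the 246 members. The other 9, ZNF491, ZNF676, ZNF729, ZNF98, ZNF492, ZNF99, ZNF723, ZNF536 and ZNF835, had at most 8 counts in any library and were not tested. A gene was called when its unadjusted p was under 0.05 and its log2 fold change beyond 1 or -1. By this criterion 1 member was higher in the clones, where 4.24% of all 22511 genes tested were, and 5 members were lower, where 5.34% of all genes were. The total of 6 members (2.53%) stands beside 9.58% of all genes, 10.1% of the other protein-coding genes of chromosome 19 and 8.64% of the ZNF genes elsewhere. No member had an adjusted p under 0.05 in edgeR with Benjamini-Hochberg adjustment (0.00444% of all genes did, and the smallest member value was 0.355), 7 members had an unadjusted p under 0.05 (11.5% of all genes), and DESeq2's Wald test gave 1 member, ZNF566, at an adjusted p of 0.0408 (4.86% of all genes). With 1 library against 3, an exact permutation test cannot go below p = 0.25, and the p-values measure the spread among these clones only.

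The spread in this test comes from the clones alone, so that members with close values in the 3 clones were the likelier to be called. ZNF726 had 119, 398, 378 and 575 counts (parental, clone 1, labelled clone 5, clone 6), and its log2 fold change was 1.70 (standard error, SE, 0.57, adjusted p = 0.427 in edgeR). It was higher in all 3 clones. ZNF566 had 1406, 738, 649 and 705 counts, with a log2 fold change of -1.25 (SE 0.39, adjusted p = 0.355 in edgeR). ZNF146 had 14059, 9800, 5435 and 6755 counts, a log2 fold change of -1.19, and part of its exons overlaps ZNF565 on the opposite strand. For both genes each clone lay below the parental library, clone 1 the least so for ZNF146. ZNF558 had 2444, 1146, 1225 and 1447 counts (log2 fold change -1.17), ZNF773 had 1433, 845, 809 and 806 (-1.04), and ZNF587 had 1602, 865, 858 and 1020 (-1.04), again with each clone below the parental library. Of the other highly expressed members, ZNF787 had 8169, 7249, 4293 and 4273 counts (log2 fold change -0.88, adjusted p = 0.441 in edgeR), while ZNF358, ZNF428 and ZNF580 had log2 fold changes of 0.11, 0.41 and -0.06. The median log2 fold change was -0.02 over the 237 members, 0.10 over all genes, 0.18 over the other chromosome 19 genes and -0.24 over the ZNF genes elsewhere. The parental library lay above all 3 clones for 66 members (27.8%, against 30.5% of all genes) and below all 3 for 32 (13.5%, against 28.6%).

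Clone 1 departed furthest from parental, and mostly downwards. Taken alone against the parental library, clone 1 was over 1 log2 unit lower for 79 members (33.3%), where 19.3% of all genes, 21.4% of the other chromosome 19 genes and 21.8% of the ZNF genes elsewhere were, and higher for 8 members (3.38%, against 16.3% of all genes). Over 3 log2 units lower were 38 members (16%), against 4.02% of all genes, 6.1% of the other chromosome 19 genes and 4.12% of the ZNF genes elsewhere, and no member was over 3 log2 units higher, where 2.42% of all genes were. The library labelled clone 5 was over 1 log2 unit lower for 19 members (8.02%, against 14.4% of all genes) and higher for 40 (16.9%, against 20.7%), with 0 members over 3 log2 units lower (1.92% of all genes) and 6 over 3 log2 units higher (2.53%, against 3.97%). Clone 6 was lower for 15 members (6.33%, against 15.9% of all genes) and higher for 46 (19.4%, against 18.6%), with 2 over 3 log2 units lower (0.844%, against 2.88%) and 1 over 3 log2 units higher (0.422%, against 2.79%). Median log2 ratios were -0.48 for clone 1, -0.03 for labelled clone 5 and 0.08 for clone 6, and over all genes -0.07, 0.03 and 0.00. All 3 ratios share the parental library, and none has a test. A ratio with 0 counts in 1 library was set at the floor of 3 counts, and genes under it in both libraries had none.

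**Figure D1:**
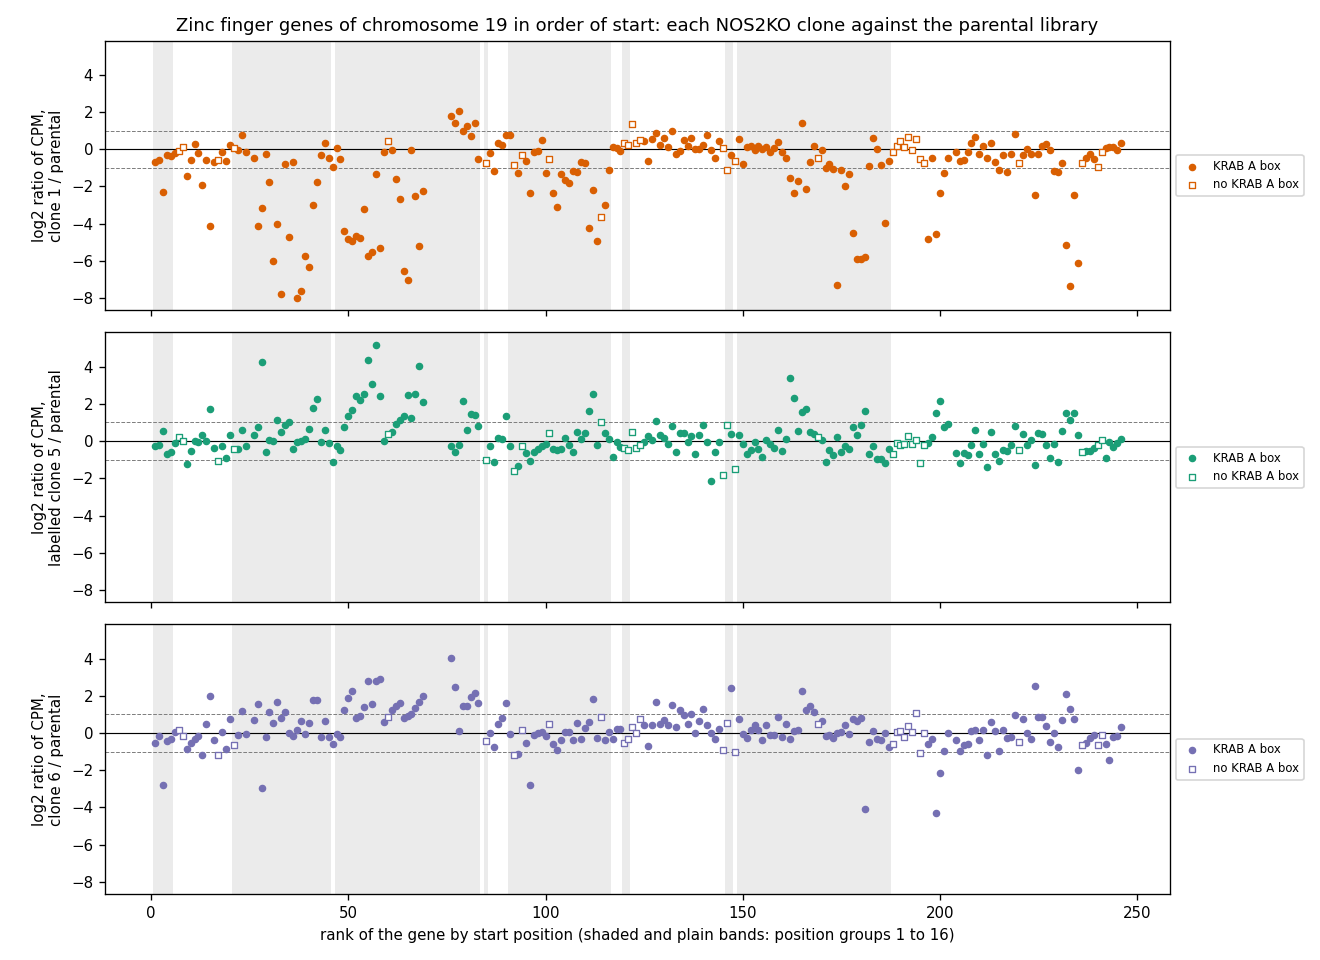
Each member's log2 ratio of CPM to the parental library in clone 1 (top), the library labelled clone 5 (middle) and clone 6 (bottom), by rank of start along chromosome 19. Filled circles have a KRAB A box, open squares have none, dashed lines mark 1 log2 unit, and shading alternates between 16 position groups. In clone 1 the lowest ratio is -8.01, and many of the low members are neighbours.

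**Figure D2:**
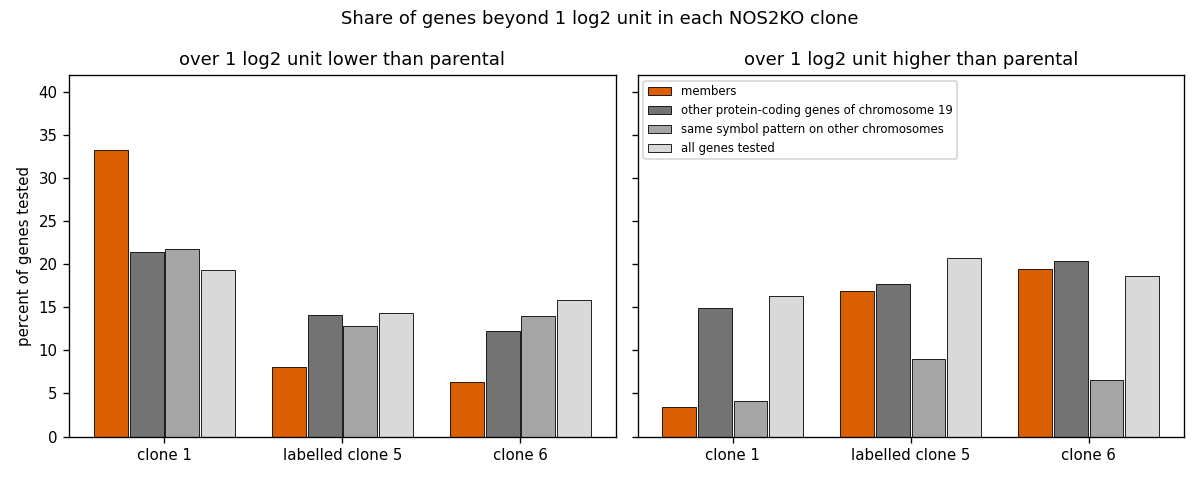
Percent of genes tested that were over 1 log2 unit lower (left) or higher (right) than parental in each clone, for the members and 3 other sets of genes. The members stand at 33.3% lower in clone 1 and at 8.02% and 6.33% lower in the other clones.

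Many of the members low in clone 1 lay next to each other. Ordered by start and separated at gaps of over 1 Mb, the 246 members form 16 position groups, of which 7 hold at least 10 members and 225 in all. In the group of 25 members from ZNF653 to ZNF791 (chromosome 19, 11483427 to 12640098, GRCh38), the median log2 ratio in clone 1 was -1.76, and 13 of 24 tested members were over 1 log2 unit lower, 10 of them over 3. In the 26 members from ZNF565 to ZNF573 (36182060 to 37817300) the median was -1.26 with 16 lower, in the 37 members from ZNF101 to ZNF254 (19668796 to 24129961) it was -1.58 with 17 lower and 6 higher, and in the 39 members from ZNF175 to ZNF331 (51571298 to 53580269) it was -0.70 with 14 lower. The 59 members from ZNF628 to ZNF446, at the end of the long arm, had a median of -0.28 with 13 lower. By contrast, the 24 members from ZNF575 to ZNF296 (43525497 to 45076588) had a median of 0.29, with 0 lower and 1 higher. ZNF45 of that group had 1186, 2225, 1477 and 1769 counts in parental, clone 1, labelled clone 5 and clone 6, and ZNF224, a repressor first described at the aldolase A promoter, had 716, 841, 1151 and 1826. Scaled to library size, ZNF45 was higher in clone 1 than in parental, while ZNF224 was slightly lower. ZNF45, ZNF224 and the other members named below outside the rules stated in the methods were chosen after their values were seen.

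Within the group from ZNF653 to ZNF791, members near 0 and expressed members lay side by side. ZNF44 had 608, 3, 690 and 735 counts (parental, clone 1, labelled clone 5, clone 6), so that clone 1 alone was near 0, with a log2 ratio to parental of -8.01 (exact 95% interval -10.29 to -6.45). ZNF136, the tested member that precedes ZNF44, had 721, 578, 637 and 696 counts, and its log2 ratio in clone 1 was -0.66 (-0.82 to -0.50). ZNF844 had 347, 2, 567 and 673 counts (log2 ratio in clone 1 -7.78, -10.83 to -5.92), ZNF563 had 154, 1, 180 and 259 (-7.61, -12.92 to -5.11), and ZNF799 had 125, 2, 233 and 198 (-6.31, -9.37 to -4.43). In each of these genes the other 3 libraries lay within 1 log2 unit of each other. ZNF442 had 127, 0, 160 and 133 counts and ZNF878 had 39, 0, 100 and 133. With the 0 of clone 1 set at the floor of 3 counts per library and the parental count taken as it stands, these are at least 53.7-fold and 16.5-fold lower, while the exact 95% intervals, which also hold the counting error of the parental library, reach up to log2 ratios of -5.43 and -3.68. ZNF700, which lies between such genes, had 567, 596, 439 and 542 counts. The promoters of ZNF136 and ZNF44 are shown because these neighbours parted in clone 1. They are the RefSeq promoters (GRCh38.p14, 250 bases before to 50 after the start) at chr19:12162846-12163145 on the plus strand and chr19:12294834-12295133 on the minus strand, with each CG dinucleotide in capitals, 22 and 17 in number.
ZNF136: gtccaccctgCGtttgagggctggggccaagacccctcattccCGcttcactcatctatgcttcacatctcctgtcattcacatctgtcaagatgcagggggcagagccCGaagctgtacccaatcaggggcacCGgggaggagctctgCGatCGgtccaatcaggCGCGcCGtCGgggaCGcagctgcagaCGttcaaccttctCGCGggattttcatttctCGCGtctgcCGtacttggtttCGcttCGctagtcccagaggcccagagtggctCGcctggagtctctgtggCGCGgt
ZNF44: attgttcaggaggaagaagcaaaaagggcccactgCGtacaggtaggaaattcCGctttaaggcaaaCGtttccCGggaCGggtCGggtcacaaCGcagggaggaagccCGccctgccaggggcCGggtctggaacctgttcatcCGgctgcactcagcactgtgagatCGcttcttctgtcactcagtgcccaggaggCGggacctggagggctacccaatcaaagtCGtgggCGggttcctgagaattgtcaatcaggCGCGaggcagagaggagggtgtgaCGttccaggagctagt

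**Figure D3:**
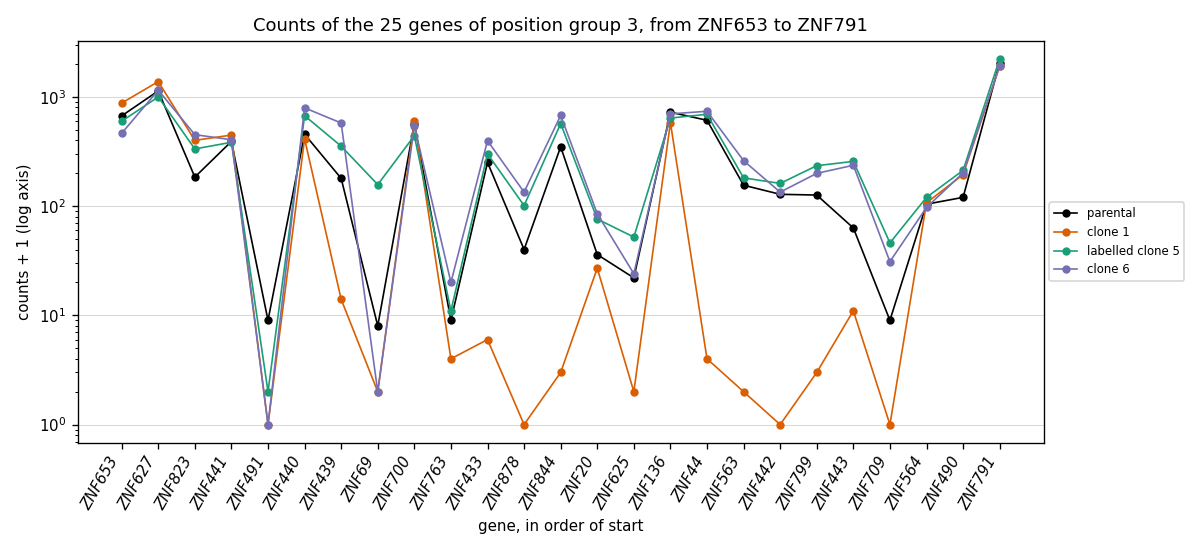
Counts plus 1 (log axis) of the 25 members from ZNF653 to ZNF791 in order of start, one line per library. Clone 1 drops to 0 to 13 counts between ZNF439 and ZNF443, except at ZNF700, ZNF20 and ZNF136, while the other libraries stay together over most genes.

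Runs of low members were then delimited in clone 1, with low meaning over 2 log2 units below parental, at most 2 other members between low ones and at least 3 low members. There were 7 such stretches, between 147 and 1165 kb long, and they held 42 of the 52 low members among 49 tested members. This definition was set after the values were seen. How many stretches the same low members would form in a random order was not determined, so their number is a description only. They ran from ZNF439 to ZNF443, ZNF506 to ZNF85, ZNF738 to ZNF257, ZNF793 to ZNF607, ZNF415 to ZNF677, ZNF582 to ZNF471 and ZNF418 to ZNF135. Within them ZNF700, ZNF763, ZNF20, ZNF136, ZNF66, ZNF100 and ZNF583 were not low by this definition, ZNF66 because its 6 parental counts allow only a small difference to be seen (upper limit of the log2 ratio -0.58). ZNF763 had 8 parental counts, and its interval in clone 1, -4.31 to 0.30, leaves its class open. ZNF69, counted as low, had 7 parental counts and an interval of -8.64 to -0.19, which includes differences smaller than 2 log2 units. In clone 1 the low members had at most 92 counts. Over 2 log2 units lower in clone 1 were 21.9% of the tested members and 8.37% of all genes. By the same definition the library labelled clone 5 had 1 low member and clone 6 had 6, and neither formed a stretch. A stretch needs 3 low members, so labelled clone 5 could not form one. With so few low members, the absence does not show how they would be arranged in these 2 libraries. The neighbours ZNF667 and ZNF471 were both low in clone 6. In the library labelled clone 5, 0 of the 42 were over 1 log2 unit lower than parental and 27 were higher, and in clone 6, 5 were lower and 17 higher. The stretches also hold 17 genes that are no members and had at least 20 parental counts, and 16 of these were over 2 log2 units lower in clone 1. Of the 17, 11 share exons with a member, all of them low, and their reads may not be told apart from those of the members. Of the other 6, 5 were low, none of them annotated as protein-coding. ZFP30, another KRAB zinc finger gene, shares exons with members and was low. It had 575, 7, 960 and 367 counts in parental, clone 1, labelled clone 5 and clone 6. The pseudogene ZNF788P, which also shares exons with a member, had 541, 22, 1543 and 1603 counts. The pseudogene ZNF826P, which shares none, had 200, 11, 1115 and 322 counts. The exception, the processed pseudogene NDUFV2P1, had 287, 554, 366 and 419 counts.

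Another pair of neighbours that differed strongly in clone 1 lay in the group from ZNF175 to ZNF331, outside the stretches. ZNF320 had 739, 6, 1012 and 801 counts (log2 ratio in clone 1 -7.29, -8.74 to -6.16). Its neighbour ZNF468 had 1332, 807, 933 and 1223 counts (log2 ratio -1.07, -1.19 to -0.94), so it was lower in clone 1 too, but far less. The exons of ZNF468 overlap those of ZNF28 on the same strand. Further on, ZNF347 had 842, 18, 1258 and 1452 counts, and ZNF665 had 95, 2, 204 and 178 (log2 ratio -5.91, -8.98 to -4.02). The promoters of ZNF468 and ZNF320 are given for the same reason as above, from RefSeq (GRCh38.p14) at chr19:52857570-52857869 and chr19:52897645-52897944, both on the minus strand, with 30 and 20 CG dinucleotides in capitals.
ZNF468: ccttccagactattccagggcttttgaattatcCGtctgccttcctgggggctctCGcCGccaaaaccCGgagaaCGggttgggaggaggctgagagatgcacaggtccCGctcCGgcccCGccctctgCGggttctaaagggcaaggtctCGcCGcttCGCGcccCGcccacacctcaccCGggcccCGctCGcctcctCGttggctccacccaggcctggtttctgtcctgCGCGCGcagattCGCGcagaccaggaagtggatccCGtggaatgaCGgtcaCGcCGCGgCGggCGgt
ZNF320: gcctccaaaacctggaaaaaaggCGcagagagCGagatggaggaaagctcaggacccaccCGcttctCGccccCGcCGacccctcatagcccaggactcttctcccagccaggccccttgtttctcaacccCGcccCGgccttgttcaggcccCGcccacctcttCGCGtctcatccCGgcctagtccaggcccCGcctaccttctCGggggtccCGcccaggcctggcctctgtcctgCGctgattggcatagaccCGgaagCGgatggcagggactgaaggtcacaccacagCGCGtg

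In all, 18 members had at least 1 CPM in a library and 3 counts or fewer in another, and clone 1 was the library at the floor for each of the 18. Besides ZNF44, ZNF844, ZNF563, ZNF799, ZNF442, ZNF878, ZNF665 and ZNF66, these included ZNF493 (221, 0, 671 and 420 counts in parental, clone 1, labelled clone 5 and clone 6, at least 93.5-fold lower in clone 1 than in parental by the floor, with an upper limit of the log2 ratio at -6.24) and ZNF256, a KRAB repressor (261, 2, 673 and 686 counts, log2 ratio in clone 1 -7.37, -10.42 to -5.50). Only ZNF69 and ZNF667 were at the floor in clone 6 as well. ZNF69 had 7, 1, 156 and 1 counts and was high in the library labelled clone 5 only. ZNF667 had 55, 0, 187 and 3 counts, at least 23.3-fold lower in clone 1 than in parental by the floor (upper limit of the log2 ratio -4.19) and with a log2 ratio of -4.32 in clone 6. None of the 18 was at the floor in the parental library or the library labelled clone 5. In the fit of all 3 clones against parental these genes had adjusted p-values between 0.676 and 0.998 in edgeR. The share of all genes that meet the same rule was not determined, so the 18 have no background to be set against.

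**Figure D4:**
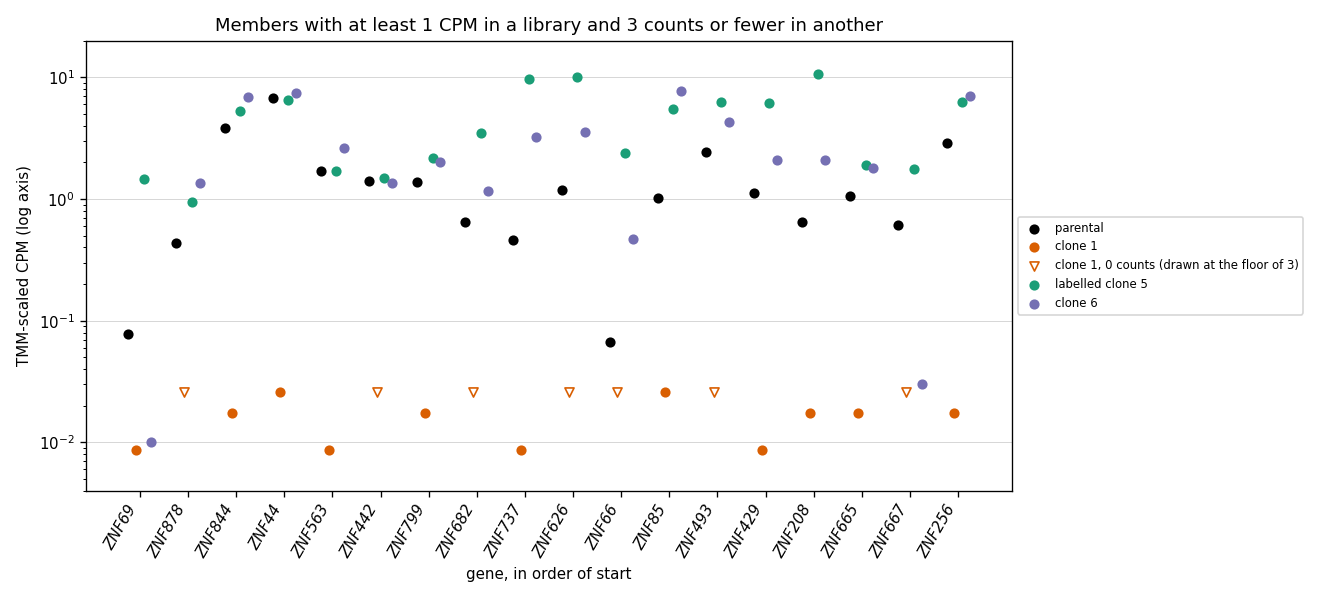
TMM-scaled CPM (log axis) in each library for the 18 members with at least 1 CPM in a library and 3 counts or fewer in another, in order of start. Open triangles stand for 0 counts in clone 1, drawn at the floor of 3. Clone 1 is the lowest library or at the floor for each gene, and the highest library is the one labelled clone 5 for 12 genes and clone 6 for 6.

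The cluster from ZNF101 to ZNF254, near the centromere on the short arm, differed in both directions. It holds members whose proteins bind retrotransposons, ZNF91 (SVA elements) and ZNF93 (LINE-1). The median log2 ratio over its 31 tested members was -1.58 for clone 1, 1.36 for labelled clone 5 and 1.45 for clone 6. In the library labelled clone 5, 19 were over 1 log2 unit higher than parental, in clone 6, 22 were, and 15 were higher in both. ZNF93 had 193, 8, 721 and 1020 counts (parental, clone 1, labelled clone 5, clone 6), and ZNF85 had 92, 3, 580 and 762. For both genes the libraries kept the order clone 1, parental, then the other clones. ZNF737 had 42, 1, 1028 and 320 counts, and the log2 ratio of clone 1 to the library labelled clone 5, -10.11, rests on that 1 count (-15.42 to -7.63). ZNF208, with 36 fingers, had 59, 2, 1123 and 207 counts, ZNF429 had 101, 1, 655 and 206, ZNF626 had 107, 0, 1074 and 347, ZNF682 had 59, 0, 369 and 114, and ZNF66 had 6, 0, 256 and 46. These 5 genes shared the order clone 1, parental, clone 6, labelled clone 5. Towards the centromere the pattern changed. ZNF91 had 210, 534, 1088 and 626 counts and ZNF675 had 313, 944, 567 and 948, so that clone 1 was above parental too, and 6 of the 8 members over 1 log2 unit higher in clone 1 lay here. Over all members, clone 1 was over 1 log2 unit lower and both other clones over 1 log2 unit higher for 19 (8.02%, against 1.16% of all genes), 11 of them in this cluster. Clone 1 was lower with the other clones within 1 log2 unit of parental for 31 members (13.1%, against 5.39%). All 3 clones were over 1 log2 unit lower for 2 members, ZNF566 and ZNF382 (0.844%, against 6.29% of all genes), and higher for 3, ZNF91, ZNF726 and ZNF534 (1.27%, against 6.56%).

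Without clone 1, the fit of the other 2 clones against parental called 21 members higher (8.86%, against 8.11% of all genes), 14 of them in the cluster from ZNF101 to ZNF254, and 8 lower (3.38%, against 7.26%). Without the library labelled clone 5 it called 0 higher (3.13% of all genes were) and 4 lower, ZNF556, ZNF677, ZNF667 and ZNF471 (1.69%, against 4.53%). Without clone 6 it called 0 higher (2.91% of all genes were) and 1 lower, ZNF558 (0.422%, against 3.74%). Each of the 6 calls made with all clones was lost in at least 1 of these fits, which have 1 residual degree of freedom each. Their log2 fold changes kept their direction, and ranged over the 3 fits from 1.41 to 1.84 for ZNF726, from -1.31 to -1.18 for ZNF566, from -1.38 to -0.997 for ZNF146, from -1.33 to -1.05 for ZNF558, from -1.08 to -1.01 for ZNF773 and from -1.18 to -0.95 for ZNF587.

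Set against each other, clone 1 was over 1 log2 unit from labelled clone 5 for 82 members and from clone 6 for 84, while those differed from each other for 31. Clone 1 was over 1 log2 unit lower than the library labelled clone 5 for 76 members (32.1%, against 20.5% of all genes) and higher for 6 (2.53%, against 11.3%), and lower than clone 6 for 81 (34.2%, against 18%) and higher for 3 (1.27%, against 12.4%). The library labelled clone 5 was higher than clone 6 for 23 members (9.7%, against 12.3%), 9 of them in the cluster from ZNF101 to ZNF254, and lower for 8 (3.38%, against 7.84%). A few members separated those 2 clones by far more. ZNF677 had 309, 7, 1130 and 20 counts, so that clones 1 and 6 were low and the library labelled clone 5 was high. ZNF471, the next member after ZNF667, had 12, 0, 63 and 0 counts, with the same split.

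The rule that chose the members used only their symbol and position, and their sequences were compared afterwards. A KRAB A box was found in 210 of the 246 proteins, translated from the longest coding sequence of each gene, and the number of C2H2 fingers had a median of 12.5 (range 0 to 39). Of the 205 tested members with a KRAB A box, 77 (37.6%) were over 1 log2 unit lower in clone 1 than in parental, against 2 of 32 without (6.25%), ZNF781 and ZNF541. Levels differed as well, with a median of 0.898 CPM per kilobase in the parental library for members with a KRAB A box and 4.14 for those without. Members were also split at the median, 6.38, of their mean CPM in the libraries labelled clone 5 and clone 6, which do not enter this ratio, a split chosen after the values were seen. In the upper part 30 of 95 members with a KRAB A box were lower in clone 1 and 0 of 24 without, and in the lower part 47 of 110 and 2 of 8. Position was not taken into account. From ZNF575 to ZNF296, 20 of 24 members have a KRAB A box and 0 were lower in clone 1. From ZNF653 to ZNF791, 23 of 25 have one and 13 were lower, and from ZNF101 to ZNF254, 35 of 37 and 17. In the library labelled clone 5, 13 members with a KRAB A box were lower (6.34%) and 39 higher (19%), against 6 (18.8%) and 1 (3.12%) without. In clone 6, 11 were lower (5.37%) and 45 higher (22%), against 4 (12.5%) and 1 (3.12%) without. The number of fingers was alike in the classes, with a median of 13.5 for the 38 members over 3 log2 units lower in clone 1 and of 12 for the 158 that were not lower. A RefSeq promoter of 300 bases was found for 215 members, with a median of 20 CG dinucleotides, against 14 over all 35116 promoters. That median was 16 for members over 3 log2 units lower in clone 1, 21 for those 1 to 3 lower and 21 for the others, with overlapping ranges of 8 to 42, 8 to 49 and 2 to 40. The AP-1 motif TGANTCA, searched on both strands because the study concerns c-Jun, was in 14 member promoters (6.51%), against 7.71% of all promoters, and in 0 of the 33 of members over 3 log2 units lower in clone 1. These are descriptions of the members and carry no test.

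**Figure D5:**
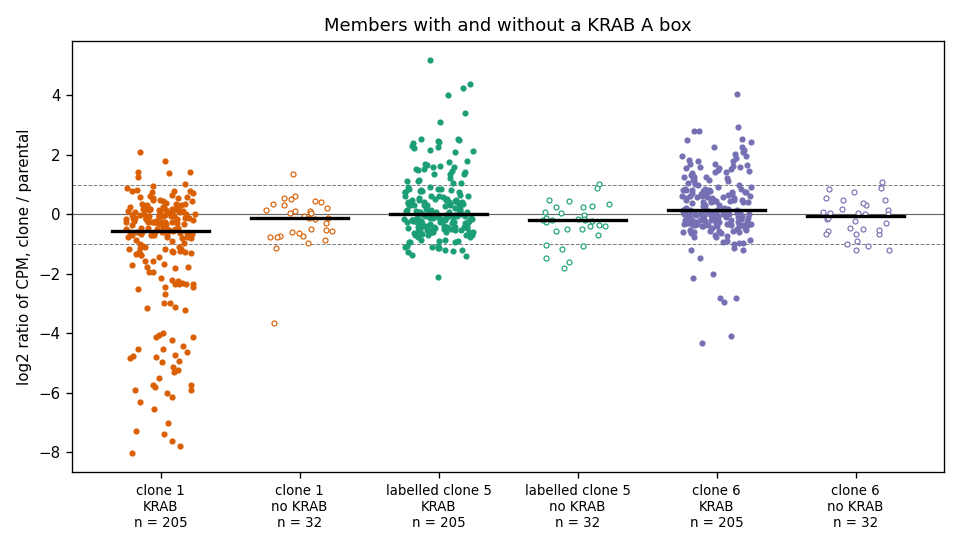
Log2 ratio of CPM to the parental library for members with a KRAB A box (filled, n = 205) and without (open, n = 32) in each clone. Points are genes, spread sideways at random, thick bars are medians and dashed lines mark 1 log2 unit. The points under -4 in clone 1 all carry a KRAB A box.

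A list of 35 measured genes that act with KRAB zinc finger proteins was examined in the same fit. TRIM28, the KRAB corepressor, which itself lies on chromosome 19 just past ZNF446, had 40596, 86245, 36409 and 37710 counts (parental, clone 1, labelled clone 5, clone 6). Clone 1 was the highest, with a log2 ratio of 0.74, and the other clones were at -0.39 and -0.23. SETDB1, the H3K9 methyltransferase, had 3440, 3632, 3765 and 3848 counts. Scaled to library size, its log2 ratios to parental were -0.27 for clone 1, -0.11 for labelled clone 5 and 0.04 for clone 6. Of the 35 genes 1 was called higher, TET1 (2.86%, against 4.24% of all genes), and 1 lower, TET3 (2.86%, against 5.34%). Both encode 5-methylcytosine dioxygenases, and 0 of the 35 had an adjusted p under 0.05. TET1 had 322, 798, 1114 and 967 counts (log2 fold change 1.35, SE 0.46, adjusted p = 0.419 in edgeR), and TET3 had 7295, 3733, 3416 and 4086 (log2 fold change -1.19, SE 0.30, adjusted p = 0.332 in edgeR). The clones lay on the same side of parental for both genes. Taken against parental by itself, clone 1 was over 1 log2 unit higher for 5 of the 35 genes, a share (14.3%) near that of all genes (16.3%). They were HDAC1 of the NuRD complex, the H3K9 methyltransferase SUV39H1, the HP1 gene CBX1, the DNA methyltransferase DNMT3B and UHRF1, which recruits DNMT1 to newly copied DNA. UHRF1 had 5526, 16462, 10202 and 8576 counts and DNMT3B had 483, 1627, 1296 and 904, in each case with clone 1 the highest and parental the lowest. TET3 was the 1 gene of the list over 1 log2 unit lower in clone 1 (2.86%, against 19.3% of all genes). Among the members themselves, ZNF274, named for its role and not for its values, had 2456, 2252, 2000 and 1835 counts. Scaled to library size, each clone lay below the parental library, by more than these counts show.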

How the data were processed

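RNA of 1 parental SUM159 library and of 3 NOS2KO clones (1 library each) was sequenced as poly(A)-enriched, paired-end libraries (NEBNext Ultra II RNA kit, Illumina HiSeq). For 57500 Ensembl genes the authors deposited whole-number counts of reads, not normalized. The submitters' processing notes name bcl2fastq 2.17, Trimmomatic 0.36, STAR 2.5.2b, featureCounts of Subread 1.5.2, DESeq2 and the build GRCh38. The annotation release, the strand setting and the treatment of reads that map to several genes are not given in the sources used here. Finger exons of related members can be alike in sequence, which was not measured here, and 137 of the 246 have exons that overlap another gene. Reads of paralogs, overlapping and antisense genes may therefore not be told apart. Symbols and coordinates came from GENCODE release 29, in which 56898 of the identifiers had a symbol and 233 of the 246 members had the coordinates of the counts.

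The fit used edgeR 4.0.16 in R 4.3.3 (filterByExpr by group, TMM, estimateDisp, glmQLFit and glmQLFTest, Benjamini-Hochberg adjustment over 22511 genes). The spread came from the clones alone (2 residual and 2.75 prior degrees of freedom, common dispersion 0.319). Single clones were compared by the log2 ratio of TMM-scaled CPM with an exact Clopper-Pearson 95% interval and without a test. These intervals, like the floors, hold counting error alone. The fits were tested on simulated data with known changes. At the fitted dispersion, edgeR's adjusted p under 0.05 found 31% of genes changed by 2 log2 units and 89% of those changed by 4. The criterion with the unadjusted p found 76% and 98%, and it also called 1066 unchanged genes in a fit of 21655. At a small dispersion edgeR found 100% by either rule. An absent adjusted call therefore does not show that a gene is unchanged.

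The study's criterion was an unadjusted p under 0.05 from a Wald test with a log2 fold change above 1 or below -1. Here p is edgeR's unadjusted value, and DESeq2 1.42.0 was an alternative, as were other scalings, filters, robust estimation and each clone left out. The members, the list of KRAB cofactors and the rules were chosen with earlier results of these data known, and the stretches and their thresholds after the values were seen. Named members were those called, those with at least 1 CPM in a library and 3 counts or fewer in another, the 5 with the highest parental CPM per kilobase, the 5 with the largest gap between clones (with 0 set at 3 counts and counts of 1 or 2 kept, so that the order rests on the floor), and the first and last by start. The KRAB A box was searched with a HMMER 3.4 profile of 40 residues built from member sequences (E at most 1e-05), and a finger as C, 2 to 4 residues, C, 12 residues, H, 3 to 5 residues, H, in translated GENCODE coding sequences instead of the RefSeq proteins planned. Promoters were those of RefSeq (GRCh38.p14). Other steps used Python 3.11.15, pandas 2.3.3, scipy 1.17.1, Biopython 1.88 and matplotlib 3.10.9.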

Additional observations from a re-analysis of the deposited data

How the results depend on the processing

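Of the values recomputed for counts of members and regulators, medians and position groups, 80 moved by less than the limit and 21 by more. Members called higher numbered 1, and 0 with library size scaling, 0 with robust estimation, 7 with DESeq2's Wald test and 0 to 21 with each clone left out (21 without clone 1). Members called lower numbered 5, and 3 with upper quartile scaling, which moved the median log2 fold change of all genes from 0.10 to 0.20, and 1 to 8 with each clone left out (8 without clone 1, 1 without clone 6). DESeq2 gave 1 of 237 members (0.422%) with an adjusted p under 0.05, against 4.86% of all genes, and edgeR 0, against 0.00444%. The share of all genes called higher was 4.24% in the main fit and 7.07% with DESeq2's Wald test. It was 4.99% with upper quartile scaling, 4.19% with library size scaling and 4.08% with robust estimation. Without a filter it was 3.47%, and with a filter of 1 CPM 4.86%. Called lower were 5.34% of all genes in the main fit and 4.45% with upper quartile scaling. Regulators called higher numbered 1, and 4 with upper quartile scaling, 0 with library size scaling, 2 without a filter, 2 with a filter of 1 CPM, 3 with DESeq2 and 0 to 1 with each clone left out, and those called lower 1 to 2. With upper quartile scaling 12 members instead of 19 were over 1 log2 unit lower in the library labelled clone 5, and with a floor of 10 counts 16 members were at the floor in the parental library and 12 in that library. The number lower in clone 1 ranged from 69 to 82 over the scalings and filters.

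The log2 fold change of ZNF667, -0.03, was 0.10 with upper quartile scaling, 0.0390 with library size scaling and 0.0265 with a filter of 1 CPM, and that of ZNF580, -0.06, was 0.0411 with upper quartile scaling. With each clone left out it ranged from -1.05 to 0.0501 for ZNF44, -1.01 to 0.34 for ZNF563, -1.04 to 0.0205 for ZNF442, -5.25 to 0.55 for ZNF667, -2.87 to 3.23 for ZNF69, -0.52 to 0.66 for ZNF844, -0.43 to 0.60 for ZNF799, -0.15 to 1.82 for ZNF682, -0.18 to 1.11 for ZNF493, -0.0681 to 1.88 for ZNF429, -0.18 to 0.82 for ZNF665 and -0.11 to 0.00291 for ZNF580. The cause was not tested. Stretches low in clone 1 numbered 8 and 6 with low set at over 1 and over 3 log2 units, thresholds chosen after seeing the data, and position groups 20 with gaps of 500 kb. No paired analysis was possible, because the parental group has 1 library and the clone numbers are names that pair no clone with it.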

Other observations

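Some members were high in clone 6 and not in the library labelled clone 5, chosen here after their values were seen. ZNF671 had 47, 11, 23 and 295 counts (parental, clone 1, labelled clone 5, clone 6), and ZNF114 had 59, 60, 92 and 348, so that clone 6 alone was high for both. ZNF728 had 5, 22, 5 and 89 counts and ZNF730 had 10, 34, 8 and 61, with clones 1 and 6 above the other libraries. ZNF285 was low in the library labelled clone 5 alone, with 276, 345, 75 and 297 counts. ZNF724 was high in clone 1 alone, with 39, 209, 40 and 46 counts. No test was made, since each clone has 1 library.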
